A study of Mus musculus with 18 samples.

Results

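Choroid plexus RNA of MRL/lpr and MRL/+ mice was compared at 12 weeks of age, gene by gene, in all libraries that the labels give this age: 6 of MRL/lpr and 3 of MRL/+, 9 of the 18 libraries sequenced. MRL/lpr mice carry the lpr mutation of Fas, a death receptor of lymphocytes, on the MRL background and develop a lupus-like autoimmune disease. The MRL/+ mice share that background, which is itself prone to autoimmunity later in life, and lack the mutation. The other 9 libraries, 6 of MRL/lpr and 3 of MRL/+ at 16 weeks, are used here only where the ages are set side by side. Nothing in the labels tells whether each library is its own animal. The p-values therefore reflect variation among these libraries, part of which may be technical. The labels give strain, age and tissue, and name no treatment.

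The choroid plexus is a sheet of secretory epithelium over a stroma with leaky, fenestrated vessels. It makes the cerebrospinal fluid, its tight junctions form the barrier between blood and that fluid, and its stroma normally holds macrophages and few lymphocytes. Interferons, released by lymphocytes, dendritic cells and other cells, bind receptors that activate STAT and IRF transcription factors, which in turn switch on defence GTPases, chemokines and the genes of antigen presentation. Chemokines then draw leukocytes that carry the matching receptors. In bulk tissue RNA a lower level can mean fewer cells of a type or less RNA per cell, and these cannot be told apart.

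A gene was tested when it passed a filter on low counts, and called when the Benjamini-Hochberg adjusted p of edgeR's quasi-likelihood test over all 16598 tested genes was under 0.05. Levels are counts relative to library size (CPM), so a difference between strains can be read for 1 gene, while levels of different genes are comparable only per kilobase of exon. Of the tested genes, 832 were higher in MRL/lpr (5.01%) and 223 were lower (1.34%). When library sizes were scaled to the choroid plexus epithelium genes in place of all genes, the median log2 difference of all genes moved from -0.01 to 0.29, and the split became 1081 higher and 17 lower. With each of the 9 libraries left out in turn, 208 genes (1.25%) were called higher every time and 21 (0.127%) lower every time. The MRL/+ libraries carried most of this loss: 225 genes were higher and 34 lower without MRL/+ replicate 1, 320 and 64 without replicate 2, and 280 and 41 without replicate 3. Leaving out MRL/lpr replicate 6 gave 969 and 494, replicate 1 gave 640 and 118, and replicate 4 gave 828 and 105. For each gene list below, the 3 numbers in brackets are the called genes that remained called without MRL/+ replicate 1, 2 and 3, in that order. Single genes described with values kept their call in all 9 such fits unless the text says otherwise. The strains did not overlap in 819 of the 832 genes called higher and in 206 of the 223 called lower. Groups that lie apart are therefore usual for a called gene and do not mark out the genes named below.

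Total counts ran from 11723599 to 14521531 per library of 12 weeks, mitochondrial genes took 4.78% to 10.6% of them, and 21674 to 23510 genes had a count. Fas itself had 16 to 67 counts per MRL/lpr library and 21, 14 and 20 counts in MRL/+, with a log2 difference of 1.09 (SE 0.46, adjusted p = 0.182). Reads were counted over all exons, so this is no check of the mutation. Epithelial markers were abundant in every library, and none of the 12 passed the test. Markers of neighbouring tissue differed between libraries. MRL/lpr replicates 1 and 4 held pineal genes at a summed 72.3 and 71.2 CPM, against 1.91 to 3.30 CPM in the others, and MRL/+ replicate 1 held neuronal genes at 639 CPM and cerebellar genes at 527 CPM. MRL/lpr replicate 2 had the highest sums of MRL/lpr for cerebellar genes (306 CPM, against 82.6 to 155 CPM in the other 5), neuronal genes (398 CPM) and astrocyte genes (594 CPM); without it 763 genes were higher and 177 lower. Without MRL/lpr replicates 1 and 4 and MRL/+ replicate 1 of both ages, which keeps MRL/lpr replicate 2 and leaves 4 MRL/lpr and 2 MRL/+ libraries at 12 weeks, 34 genes were called, 28 higher and 6 lower, all in the direction of the full comparison. Of the 1055 called genes, 1054 had a value in that fit and all 1054 kept their sign. Their median log2 difference was 3.67 in place of 3.74 for the genes called higher and -0.45 in place of -0.54 for those called lower.

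At 16 weeks the same test called 1410 genes higher (8.49%) and 439 lower (2.64%). The comparisons at the 2 ages share no libraries, though they share the estimate of the spread. Of the 832 genes higher at 12 weeks, 747 were also called higher at 16 weeks, which is 89.8% of the 12-week list and 53% of the 16-week list, and 825 had the same sign. The lower genes matched less: 58 of 223 were called lower at 16 weeks, 26.0% of the 12-week list and 13.2% of the 16-week list, and 197 had the same sign. No gene was called in opposite directions at the 2 ages. Median log2 differences of the higher genes were 3.74 at 12 weeks and 4.09 at 16 weeks, and those of the lower genes -0.54 and -0.22. The difference between the ages was also tested itself, as a strain by age interaction: edgeR called 0 genes, with 2286 at an unadjusted p under 0.05. DESeq2 likewise called 0, with 2626 under that level.

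**Figure D1:**
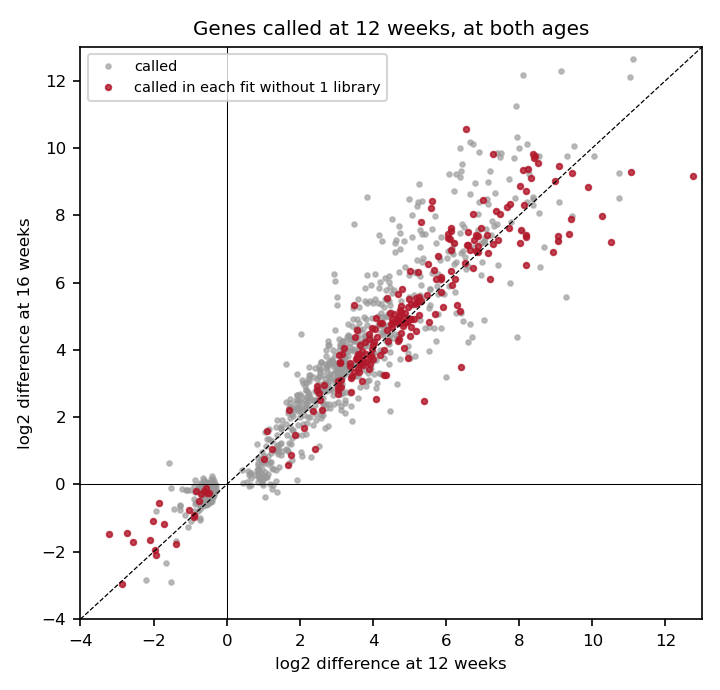
Log2 difference between MRL/lpr and MRL/+ at 12 weeks (horizontal axis) against that at 16 weeks (vertical axis) for the 1055 genes called at 12 weeks, with the line of equal values dashed. Points in red are the genes called in each of the 9 fits that leave out 1 library of 12 weeks; higher genes lie along the dashed line, and many lower genes lie nearer to 0 at 16 weeks.

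Almost every interferon-inducible GTPase was higher in MRL/lpr. These proteins, the immunity-related GTPases (IRG) and the guanylate-binding proteins (GBP), attack the vacuoles of intracellular microbes and are induced mainly by interferon gamma. Of 19 tested members 18 were higher (9, 13 and 12) and none lower, with a median log2 difference of 4.68 against -0.01 over all tested genes. At 16 weeks all 19 were higher. The GBP genes lie in neighbouring blocks on chromosomes 3 and 5, and a motif known as the interferon-stimulated response element, GAAANNGAAA on either strand, is where STAT and IRF factors are known to bind. It was found in the RefSeq promoter windows (GRCm38.p6, 250 bases before to 50 after a gene's start) of all 11 list members that have one; since 1 gene has more than 1 window, this is 11 of 12 windows (91.7%). By comparison 3.25% of the 15110 windows of all tested genes held it, 9.60% of those of genes called higher and 2.18% of those of genes called lower. The STAT motif TTCNNNGAA stood in 58.3% of the windows of these GTPases and in 6.84% of those of all tested genes. A match is a description of letters, not of binding. The windows of 4 members are shown because they hold the response element shared by this group, which is in capitals; in Gbp3 2 overlapping copies form 1 longer run. They are Gbp2 at chr3:142620413-142620712, Gbp3 at chr3:142559794-142560093, Gbp5 at chr3:142496684-142496983 and Igtp at chr11:58199306-58199605, all on the plus strand.
Gbp2: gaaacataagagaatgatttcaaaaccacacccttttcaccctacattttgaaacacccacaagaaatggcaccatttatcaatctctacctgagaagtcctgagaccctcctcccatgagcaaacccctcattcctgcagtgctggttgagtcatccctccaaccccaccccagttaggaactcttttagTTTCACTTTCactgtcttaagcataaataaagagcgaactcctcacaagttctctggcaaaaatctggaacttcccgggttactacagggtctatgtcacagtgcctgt
Gbp3: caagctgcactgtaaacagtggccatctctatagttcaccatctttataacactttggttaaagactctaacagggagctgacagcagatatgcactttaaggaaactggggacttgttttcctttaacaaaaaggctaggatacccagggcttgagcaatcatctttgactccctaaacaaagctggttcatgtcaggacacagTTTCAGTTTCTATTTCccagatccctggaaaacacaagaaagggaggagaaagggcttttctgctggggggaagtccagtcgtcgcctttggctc
Gbp5: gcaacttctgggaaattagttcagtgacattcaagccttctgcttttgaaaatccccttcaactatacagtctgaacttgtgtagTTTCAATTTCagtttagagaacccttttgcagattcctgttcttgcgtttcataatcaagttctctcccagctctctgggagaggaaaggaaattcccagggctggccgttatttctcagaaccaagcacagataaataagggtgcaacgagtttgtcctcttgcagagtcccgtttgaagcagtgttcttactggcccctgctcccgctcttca
Igtp: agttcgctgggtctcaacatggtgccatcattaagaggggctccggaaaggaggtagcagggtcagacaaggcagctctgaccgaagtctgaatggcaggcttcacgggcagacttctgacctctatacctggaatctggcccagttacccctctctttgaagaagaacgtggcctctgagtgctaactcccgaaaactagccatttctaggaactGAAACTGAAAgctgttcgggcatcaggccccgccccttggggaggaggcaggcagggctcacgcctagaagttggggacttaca

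Below, a gene's values are the lowest, median and highest of the 6 MRL/lpr libraries in CPM, followed by the 3 MRL/+ libraries in the order of their replicate number. Gbp2 (chromosome 3, 142620602 to 142638008) stood at 40.2, 87.0 and 167 CPM against 3.56, 3.84 and 4.47 CPM, 23.4-fold higher (log2 difference 4.55, SE 0.74, adjusted p = 0.00269). Gbp4, on chromosome 5, was at 17.7, 35.2 and 72.4 CPM against 0.953, 0.784 and 0.863 CPM, 45.2-fold higher (log2 difference 5.50, SE 0.86, adjusted p = 0.00232). Every MRL/lpr library lay above every MRL/+ library for both genes. Gbp8 overlaps Gbp4 in the annotation, so its level of 10.2, 24.1 and 54.3 CPM against 0.445, 0.940 and 0.628 CPM may share reads with it. Iigp1, which loads onto vacuole membranes, ranged from 72.4 through 191 to 354 CPM in MRL/lpr and stood at 0.763, 1.72 and 3.06 CPM in MRL/+, 114-fold higher (SE of the log2 difference 1.0, adjusted p = 0.0016). Gbp5 and Gbp6 were 25.7-fold and 25.6-fold higher and Tgtp2, which has the near-identical copy Tgtp1, 31.6-fold. Igtp, a regulator of the other IRG proteins, reached 54.1, 125 and 324 CPM against 7.69, 11 and 10.7 CPM (log2 difference 3.89, SE 0.75, adjusted p = 0.00549). Its adjusted p was 0.0517 without MRL/+ replicate 1. Igtp's groups did not overlap.

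Of 24 IRF, STAT and related transcription factors 10 were higher (3, 5 and 2) and 1 was lower, at a median log2 difference of 1.32. Nlrc5, the activator of MHC class I genes, was at 19.3, 37.5 and 76.3 CPM against 4.19, 4.0 and 5.10 CPM, 9.25-fold higher (log2 difference 3.21, SE 0.59, adjusted p = 0.0047). Irf4, a factor of plasma cells and activated lymphocytes, was 54.7-fold higher, from 0.191, 0.0784 and 0.0784 CPM to a median of 5.51 CPM.

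Genes that cut and load peptides for MHC class I were higher only in part. Of 14 members 6 were higher (2, 4 and 2), with a median log2 difference of 0.89. The inducible proteasome subunits Psmb8 and Psmb9, which replace the constitutive ones under interferon, reached medians of 58.4 and 46.6 CPM. Psmb8 was at 2.42, 1.88 and 4.0 CPM in MRL/+, with a log2 difference of 4.68 (SE 0.78, adjusted p = 0.00297), and Psmb9 at 2.54, 2.90 and 3.69 CPM, with 4.24 (SE 0.73, adjusted p = 0.00342). Of the 26 constitutive proteasome subunits none was called, and their median log2 difference was 0.23. Of 19 tested nonclassical MHC class I genes 12 were higher (2, 2 and 3), at a median of 2.79. H2-M2 held 1 count over the 3 MRL/+ libraries and 6.96, 17.2 and 48.2 CPM in MRL/lpr, a count ratio of 944 (exact 95% interval 169 to 37322, counting error only). H2-Q10 had a count ratio of 34.6 (11.7 to 169). Reads of the H2 genes can fall on near-identical copies, so single H2 values are uncertain. H2-Eb1, a beta chain of MHC class II outside the lists, was at 89.6, 151 and 524 CPM against 6.74, 3.13 and 5.96 CPM.

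Sensors of nucleic acids and bacterial products formed the next group. Of 30 cytosolic nucleic acid sensors 12 were higher (3, 4 and 4), and 23 at 16 weeks, with medians of 2.58 and 3.8. Zbp1, which binds left-handed nucleic acid and can start necroptosis, was at 6.88, 11.7 and 32.1 CPM against 0.191, 0.0784 and 0.157 CPM, 97.8-fold higher (log2 difference 6.61, SE 1.05, adjusted p = 0.00245). Aim2, the DNA sensor of an inflammasome, opens a run of 11 called neighbours on chromosome 1 that holds the Ifi200 genes. Aim2 was 14.9-fold higher and Ifi204 11.1-fold higher, with log2 differences of 3.90 (SE 0.64) and 3.47 (SE 0.67) and adjusted p values of 0.00269 and 0.00549. The Ifi200 genes are close paralogs, and the counting of reads that align to several of them is not known here. Of the 3 neighbouring inflammatory caspases on chromosome 9, Casp4 was 22.6-fold higher (3.48, 9.60 and 20.4 CPM against 0.318, 0.392 and 0.549 CPM), Casp1 13.1-fold and Casp12 4.32-fold, and none overlapped between strains. The inflammasome and cell death list had 9 of 23 members higher (2, 3 and 2).

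Toll-like receptors and their partners had 11 of 23 members higher (4, 5 and 4). Without MRL/lpr replicate 1, 7 of the 11 remained. The 4 with the smallest p were Tlr13, a receptor of bacterial ribosomal RNA, at 4.01, 6.21 and 10.2 CPM against 0.636, 0.784 and 1.02 CPM (log2 difference 3.06, SE 0.50, adjusted p = 0.00276); Ly86, the partner of the receptor Cd180 (3.12, SE 0.53); Tlr11 (5.53, SE 1.01); and Tlr7. Tlr7, the endosomal receptor of single-stranded RNA on the X chromosome that lupus models have tied to autoantibodies, was at 5.05, 6.90 and 13.8 CPM against 0.953, 1.33 and 2.12 CPM, 5.55-fold higher (log2 difference 2.47, SE 0.45, adjusted p = 0.00458). In each of these genes the strains were apart.

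**Figure D2:**
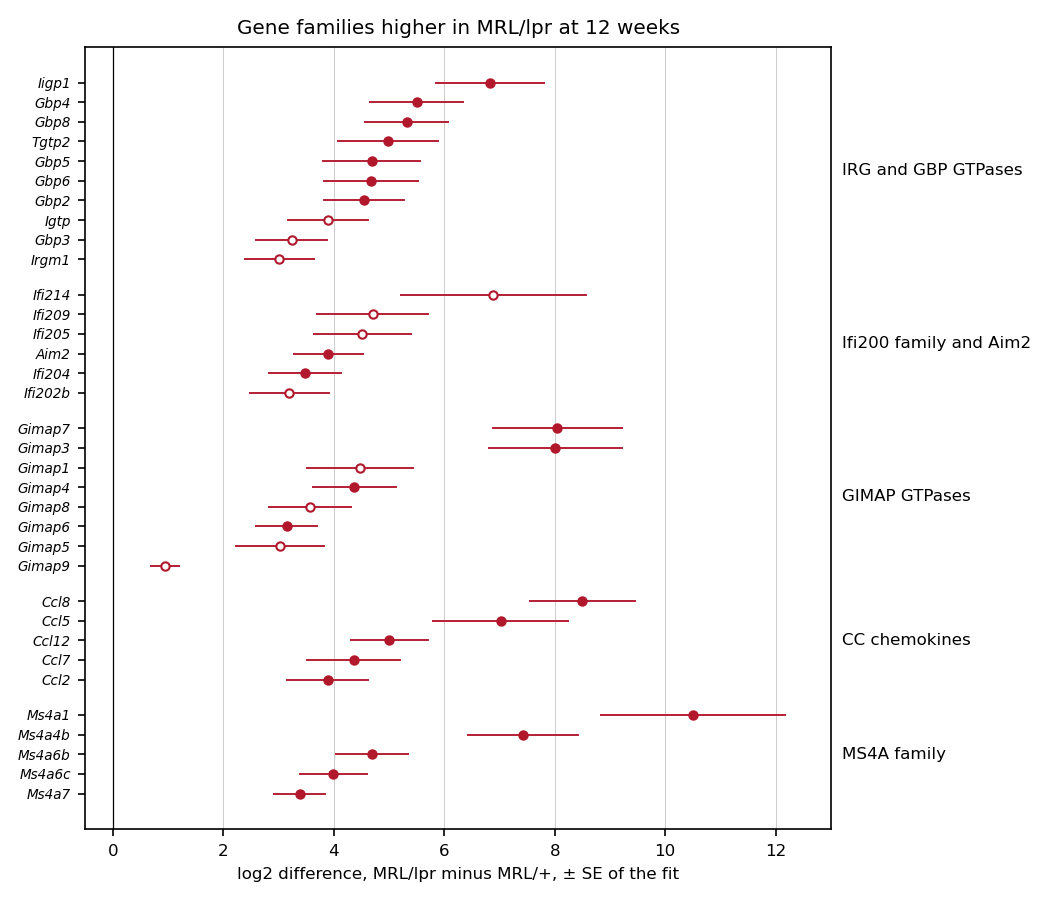
Log2 difference between MRL/lpr and MRL/+ at 12 weeks with the SE of the fit (horizontal axis) for members of 5 gene families that lie in neighbouring blocks or share a list. Filled points kept their call in each of the 9 fits that leave out 1 library and open points did not; every point shown was called, from Gimap9 at 0.94 to Ms4a1 at 10.5, whose fitted size depends on the prior count because MRL/+ had 0 counts.

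Inflammatory chemokines had 13 of 24 tested members higher (9, 9 and 10) and none lower. Ccl8, a ligand that draws leukocytes, rose from 0.254, 0.549 and 0.157 CPM to 55.2, 92.1 and 280 CPM, 363-fold (log2 difference 8.50, SE 0.97, adjusted p = 0.000272). It lies beside Ccl2, Ccl7 and Ccl12 on chromosome 11, ligands of Ccr2, and all 4 were called. Ccl12 was 32.1-fold, Ccl7 20.5-fold and Ccl2 14.8-fold higher. Per kilobase of exon, Ccl8 had a median of 180 CPM in MRL/lpr, against 9.44 for Ccl12, 3.95 for Ccl7 and 3.22 for Ccl2. The ligands of Cxcr3 were the other block. Cxcl9, induced by interferon gamma, was at 43.4, 99.5 and 267 CPM against 0.254, 0.705 and 0.157 CPM, 322-fold higher (log2 difference 8.33, SE 1.04, adjusted p = 0.000624). Cxcl10, with 2 counts in MRL/+, had a count ratio of 252 (exact 95% interval 69.7 to 2086), and Cxcl11 was 123-fold higher. Every MRL/lpr library lay above every MRL/+ library for these 7 chemokines, as for 819 of all 832 genes called higher. Ccl5, made by T cells and natural killer cells, was 130-fold higher. Cxcl9 had no response element in its promoter window, and 7.69% of the windows of the chemokine list held one.

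On the receptor side 10 of 19 were higher (3, 5 and 5). Ccr2, the monocyte receptor, was at 12.5, 23 and 50.1 CPM against 0.763, 1.80 and 2.35 CPM (log2 difference 3.93, SE 0.57, adjusted p = 0.0016). Cxcr6, carried by tissue-dwelling T cells, was 50.4-fold higher (3.22, 9.15 and 17.6 CPM against 0.254, 0.0784 and 0.157 CPM). Cxcr3, the receptor of Cxcl9, Cxcl10 and Cxcl11, had no count in any MRL/+ library and 1.77, 2.94 and 13.1 CPM in MRL/lpr, at least 72.3-fold higher when the 3 MRL/+ libraries together are set to 3 counts. Ccr1, a receptor of monocytes, was 10.5-fold higher, with an adjusted p of 0.00681 that became 0.0537 without MRL/+ replicate 1.

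Of 26 genes of the T cell receptor pathway 22 were higher (7, 13 and 12), with a median log2 difference of 4.81, and 25 at 16 weeks. Cd247, the zeta chain of the receptor, was at 4.62, 5.96 and 17.3 CPM against 0.127, 0.0784 and 0 CPM, a count ratio of 113 (exact 95% interval 38.4 to 548). Themis, a T cell signalling protein, had a count ratio of 66.9 (11.8 to 2663) and the adaptor Sh2d2a one of 161 (28.7 to 6391). Lat, the scaffold of the pathway, had enough MRL/+ reads for a fold: 4.79, 6.38 and 18.5 CPM against 0.445, 0.235 and 0.471 CPM, 23.6-fold higher (log2 difference 4.56, SE 0.79, adjusted p = 0.00353). Inhibitory checkpoints had 12 of 21 members higher (3, 5 and 4). Ctla4, the brake on Cd28, was at least 64.8-fold higher, with 1.71, 3.88 and 11.7 CPM and no count in MRL/+. Btla, an inhibitory receptor of B and T cells, was 33.1-fold higher and Cd86, the ligand of Cd28 and Ctla4, 8.51-fold.

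The GIMAP genes, GTPases that support lymphocyte survival, were in no list and 2 of them were among the 12 named genes with the highest difference outside the lists. Gimap7 had 1 count in MRL/+ and 3.75, 6.28 and 17.2 CPM in MRL/lpr, a count ratio of 371 (exact 95% interval 66.4 to 14687). Gimap3 had a count ratio of 295 (101 to 1433). The block on chromosome 6 also held Gimap4, 20.7-fold higher, and Gimap6, 8.83-fold higher, both with higher levels in MRL/+ (1.40 to 1.73 CPM and 2.43 to 3.81 CPM). Other members of the 12 were Ikzf3, a factor of B cells and plasma cells (count ratio 305, 54.5 to 12065), Kynu, an enzyme of the kynurenine pathway (205, 36.6 to 8111), Lax1, an adaptor of lymphocytes (123, 41.8 to 597), Cd69, an early activation receptor (109, 30.0 to 902), and Gpr174, a lysophosphatidylserine receptor of lymphocytes (80.9, 22.2 to 671). Art2a-ps, annotated as a pseudogene of a T cell ADP-ribosyltransferase, and S100a4 had no MRL/+ count and were at least 89.9-fold and at least 36.0-fold higher. S100a4, a calcium-binding protein of leukocytes and fibroblasts, was called also without the 4 libraries with other tissue.

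Among cytokine receptors of lymphocytes 14 of 26 were higher, but this count rested on the controls (1, 5 and 2). Il18r1, part of the receptor for interleukin 18, was the member called in every fit, with 1 count in MRL/+ and 1.22, 2.66 and 8.68 CPM in MRL/lpr (count ratio 163, exact 95% interval 29.1 to 6473). In the TNF superfamily 15 of 32 were higher (1, 2 and 2), and Ltb, a subunit of lymphotoxin, was the member called in every fit. Fasl, the ligand of Fas, had 2 counts in MRL/+ and 0.53, 1.72 and 3.25 CPM in MRL/lpr (count ratio 37.6, 10.2 to 313, adjusted p = 0.00687). The adjusted p of Fasl was 0.0524 without MRL/+ replicate 1 and 0.0517 without replicate 3. Ifng, the gene of interferon gamma, had no count in MRL/+ and 0.174, 0.927 and 2.75 CPM in MRL/lpr, and missed the threshold with an adjusted p of 0.0504; it was chosen after its values were seen.

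The cell composition was read from marker panels, each a short list of genes that define a cell type. T cell markers were higher for 9 of 10 genes (9, 9 and 9). Summed over the panel they ran from 44.9 through 68.1 to 212 CPM in MRL/lpr against 1.91, 2.74 and 1.33 CPM in MRL/+. The mature B cell panel had 10 of 12 higher (2, 5 and 4) and the plasma cell panel 8 of 9 (4, 4 and 3). CD8 markers had 4 of 6 higher in every fit and CD4 markers 4 of 6 (3, 4 and 4). The T helper 1 panel had 5 of 6 higher (3, 4 and 3), while none of the 5 tested genes of T helper 2, T helper 17 and innate lymphoid cells was called, and Il17a and Il17f had no count in any of the 9 libraries. Follicular helper markers had 5 of 7 higher (1, 3 and 3), falling to 3 without MRL/lpr replicate 1. Regulatory T cell markers had 2 of 7 higher (1, 1 and 1), Ctla4 and Il2ra, and the defining factor Foxp3 was at 0.329, 0.740 and 2.46 CPM against 0.318, 0.157 and 0.157 CPM (adjusted p = 0.157).

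Of 8 tested natural killer markers 6 were higher (3, 3 and 3), and Ncr1, the receptor that marks natural killer cells, was not called. Nkg7, a granule protein shared with CD8 T cells, was 70.5-fold higher (2.89, 5.98 and 20.5 CPM against 0.127, 0.0784 and 0.157 CPM). Klrk1, an activating receptor also found on T cells, was 37.7-fold higher. Ncr1 was at 0.0657, 0.224 and 1.33 CPM against 0.191, 0.0784 and 0.0784 CPM (adjusted p = 0.415), with overlapping groups, and Klra8 and Klra4 had no count in any of the 9 libraries. Whether the MRL background carries Klra8 and Klra4 as in the reference build was not tested, so their lack of counts does not show absent natural killer cells. Per kilobase of exon, Gzmk had a median of 3.04 CPM in MRL/lpr, Gzma 1.69, Gzmb 0.558 and Prf1 0.446. Of these 4 granule genes Gzmk kept its call in all 9 fits, and the other 3 (adjusted p = 0.0266 for Gzma, 0.0237 for Gzmb and 0.0181 for Prf1) lost it without each MRL/+ replicate. Gamma delta T cell genes gave 2 of 4 higher (0, 1 and 0), and without MRL/lpr replicate 1 1 remained; Trdc, the delta chain, was not called (adjusted p = 0.30). Germinal centre B cell markers gave 1 of 6, Gcsam (0, 0 and 0), and Rgs13 had too few counts to be tested. Of the stromal organisers, Cxcl13 was called in every fit and Ccl21a had no count. How reads that align to more than 1 gene were counted is not known, so the lack of Ccl21a counts is uncertain.

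**Figure D3:**
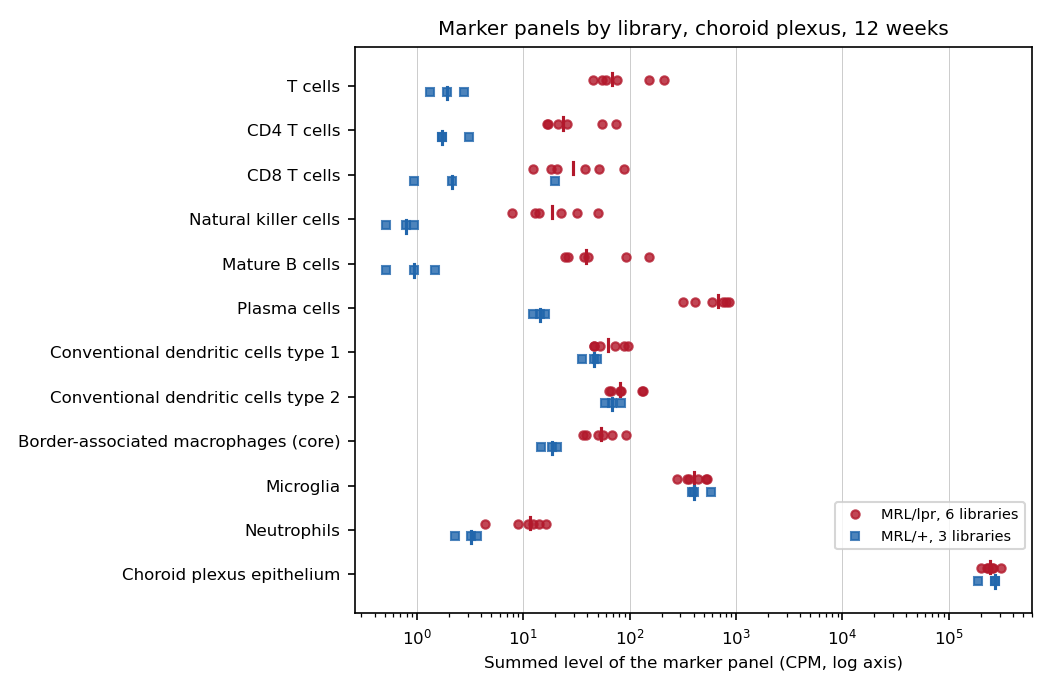
Summed CPM of 12 marker panels (horizontal log axis) in the 6 MRL/lpr and 3 MRL/+ libraries of 12 weeks; each symbol is a library and the short line is the group's median. T cell, B cell and plasma cell panels of MRL/lpr lie wholly above MRL/+. The CD8 panel overlaps because MRL/+ replicate 1 lies within the MRL/lpr range, and both dendritic cell panels and the microglial and epithelial panels overlap.

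Immunoglobulin constant reads of MRL/lpr were mostly of the switched classes. Heavy chain constant genes held 9561 to 51035 counts per MRL/lpr library against 96, 141 and 62 in MRL/+. As a share of heavy chain constant reads per kilobase, the IgG genes together took 64.0%, 70.0% and 87.1% (lowest, median and highest of the 6 libraries). Igha took 7.88%, 23.4% and 32.7%, and Ighm, the unswitched class, 2.0%, 4.05% and 13.5%. Among the IgG genes Ighg2c had the highest median, 28.7%, with 19.0% for Ighg3 and 12.5% for Ighg1. Per kilobase the leading class was Ighg2c in 3 libraries, Ighg3 in 2 and Ighg1 in 1. This order turns on the division by exon length: by counts Igha led in 4 of the 6 libraries, with a median share of 33.8% against 20.6% for Ighg2c. Iglc2, a lambda light chain gene, was 202-fold higher (11, 24.3 and 43 CPM against 0.127, 0.157 and 0.0784 CPM; adjusted p = 0.000124), and lambda reads made up 2.07% to 14.6% of light chain reads. The constant genes, heavy and lambda, are similar in sequence, so shares between classes can be moved by reads that fit more than 1 of them. Class names are those of genes in the reference build GRCm38, and how MRL alleles align to them was not tested.

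**Figure D4:**
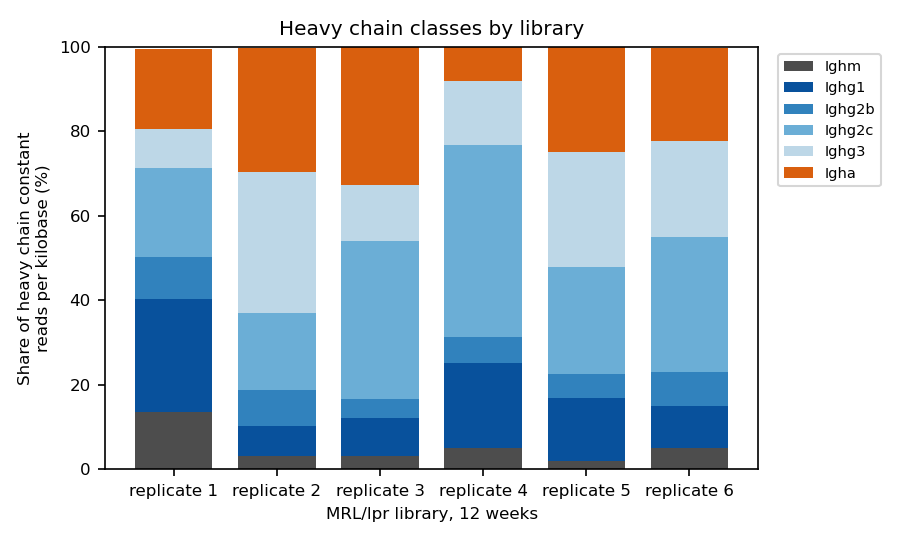
Share of heavy chain constant reads per kilobase of exon (vertical axis, percent) by class in each of the 6 MRL/lpr libraries of 12 weeks; Ighd and Ighe, each under 1%, are left out. Ighm stays between 2.0% and 13.5%, and the largest class per kilobase is Ighg2c in 3 libraries, Ighg3 in 2 and Ighg1 in 1; by counts it is Igha in 4.

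Many variable segments were used. Of 183 heavy chain variable genes in the table, 46 to 73 had at least 3 counts in a MRL/lpr library, with a median of 63, and 0 or 1 had them in MRL/+. For the kappa chain it was 46 to 75 of 160, with a median of 62, against 0 to 3. The T cell receptor beta segments gave 6 to 15 of 35, with a median of 12, against 0. The effective number of segments, which discounts rare ones, ran from 18 to 38.5 for heavy chain, from 17.2 to 27.2 for kappa and from 11.2 to 13.3 for beta. Segment use in whole tissue is not a clone count, since cells that share a segment can differ in their junctions. The segments too are those of the reference build, and how MRL alleles align to them was not tested.

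Ratios between infiltrate genes within a library were set against those of the 6 MRL/lpr libraries of 16 weeks, by an exact two-sided permutation test over all splits of 6 against 6. None of 12 ratios passed: the smallest p was 0.104, and all adjusted p values were 0.713 or more. The median ratio of plasma cell to mature B cell reads was 14.1 at 12 weeks and 15.8 at 16 weeks, with log2 means of 3.58 (SD 0.67) and 4.20 (SD 0.69). Reads were summed over each panel, and Jchain made up most of the plasma cell sum at 12 weeks. That ratio is therefore largely one of Jchain to B cell genes, not of cell numbers. B cell to T cell reads stood at 0.518 and 0.365, Cd8a and Cd8b1 to Cd4 at 0.570 and 0.556, IgG to Ighm at 16.0 and 17.2, and cytotoxic genes to T cells at 0.191 and 0.198. Foxp3 to T cell reads stood at 0.0111 and 0.00849. None passed in the 144 tests that left out 1 library either. A p that misses the threshold does not show that the ratios are equal: the ratio of plasma cell to mature B cell reads spanned 5.61 to 18.6 at 12 weeks.

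The T cell panel was set against 6 other panels or lists among the 6 MRL/lpr libraries, and no relation passed after adjustment. Pearson's r between mean log2 levels of the T cell and the cell cycle panels was 0.941 (exact permutation p = 0.0139, adjusted 0.0583 over 6 relations; Spearman's rho 0.771, p = 0.103, adjusted 0.154). It was 0.876 without replicates 1 and 6, the farthest from the median. With plasma cells r was 0.928 (exact permutation p = 0.0194, adjusted 0.0583), and 0.851 without those replicates. With mature B cells it was 0.932 (exact permutation p = 0.0361, adjusted 0.0722), falling to 0.690. With the IRG and GBP genes it was 0.83 (exact permutation p = 0.0542, adjusted 0.0813), and 0.902 without them, and with the epithelium 0.037 (exact permutation p = 0.932). Spearman's rho was 0.771 for B cells, plasma cells and the GTPases too, and 0.257 for the epithelium. With the core macrophage panel r was 0.577 (exact permutation p = 0.211, adjusted 0.253; Spearman's rho 0.314), and 0.118 without replicates 1 and 6. Replicates 1 and 6 had the highest T cell levels, and replicate 1 is also a library with pineal genes; its part in these relations was not tested beyond leaving it out.

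Some cell division genes were higher. Of 51 tested 12 were higher, 8 of them without MRL/lpr replicate 1 (1, 2 and 0 without the MRL/+ replicates), and none was lower. The median log2 difference was 1.15, and 49 of 51 were positive. Top2a, a topoisomerase of dividing cells, was at 4.62, 8.30 and 27.9 CPM against 0.508, 0.940 and 0.706 CPM, 16.2-fold higher (adjusted p = 0.0116). Its groups were apart, but its adjusted p was 0.0833, 0.0563 and 0.0701 without MRL/+ replicate 1, 2 and 3. At 16 weeks 26 of the 51 were higher. None of the 11 tested replication histone genes was called.

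In the core panel of border-associated macrophages, the resident macrophages of the brain's borders, 1 of 9 genes was called, Ms4a7, and 8 of 9 were positive, with a median log2 difference of 1.4. Ms4a7 was at 12.2, 17.7 and 33.9 CPM against 1.08, 1.88 and 2.59 CPM, 10.4-fold higher (log2 difference 3.38, SE 0.48, adjusted p = 0.00149). The panel's summed level was 36.3 to 91.7 CPM against 20.8, 14.7 and 18.5 CPM, with no overlap. The wider list of these macrophages had 5 of 20 tested genes higher (3, 3 and 3, and 3 without MRL/lpr replicate 1), at a median of 1.18, and its summed level overlapped between strains (780.2 to 1174 CPM against 1024, 973 and 928 CPM). The core genes are only a small part of that sum, which is set by genes outside the core panel. Monocyte markers had 5 of 9 higher (4, 5 and 4). Ly6c2 was 166-fold higher (14, 29.2 and 70.6 CPM against 0.0636, 0.313 and 0.314 CPM), though its neighbour Ly6c1 is nearly the same in sequence. Plac8, found in monocytes and lymphocytes, was 27.1-fold higher and Spn, a sialoprotein of leukocytes, 70.5-fold. Microglial markers had 4 of 12 higher (2, 2 and 2), Gpr34 among them at 3.63-fold, and their summed level overlapped between strains (281 to 533 CPM against 584, 390 and 401 CPM). In MRL/+ replicate 1, the highest of these, neural markers were also highest, and their part in this was not tested.

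Dendritic cell panels were called in part. The type 1 panel had 4 of 8 higher (1, 1 and 1, and 2 without MRL/lpr replicate 1), and Clec9a, its receptor for dead cells, was 12.0-fold higher (1.97, 3.01 and 8.17 CPM against 0.445, 0.0784 and 0.392 CPM). The type 2 panel had 3 of 6 (1, 1 and 1), with Clec10a 10.5-fold higher. Summed levels overlapped between strains for the type 1 panel (45.8 to 95.5 CPM against 49.5, 46.1 and 36.0 CPM). They also overlapped for the type 2 panel (64.4 to 133 CPM against 83.2, 58.4 and 68.8 CPM). A summed level is set by its most abundant genes. Clec9a, at a median of 3.01 CPM in MRL/lpr, was a small part of the type 1 sum (median 62.9 CPM). Overlap of these sums is therefore no measure of dendritic cell numbers. Mature dendritic cell genes had 5 of 10 (3, 3 and 3, and 3 without MRL/lpr replicate 1), with Samsn1 13.2-fold higher and the chemokine Ccl22 at a count ratio of 47.7 (exact 95% interval 13 to 397). Plasmacytoid dendritic cell genes had 2 of 10, Ly6d and Spib (1, 2 and 1), and B cells express both. Ly6d had no count in MRL/+ and 8.88, 16.6 and 39.3 CPM in MRL/lpr, at least 280-fold higher. Of 5 tested neutrophil genes 1 was higher, Csf3r (0, 0 and 0), which also lost its call without MRL/lpr replicates 1, 2 and 6, and Ly6g and Camp had too few counts to be tested. In the panel of mast cells, basophils and eosinophils 1 of 2 tested genes was higher, Prg2, an eosinophil granule protein, which lost its call without MRL/+ replicates 1 and 3. Of its 11 genes with too few counts to be tested, Mcpt8, Prss34 and Epx had no count.

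All 7 genes of the phagocyte NADPH oxidase list were higher (2, 3 and 3), at a median of 4.38. Of these Hvcn1, a proton channel, is no subunit of the oxidase, and it lost its call without each MRL/+ replicate. Ncf4, a cytosolic subunit, was 20.8-fold higher (3.30, 5.51 and 15.6 CPM against 0.254, 0.549 and 0.314 CPM), and Rac2, its GTPase, 25.8-fold. Fc receptors and their adaptors, which read antibody on immune complexes, had 10 of 13 higher (3, 4 and 4). The adaptor Tyrobp was at 32.4, 44.6 and 123 CPM against 4.19, 7.76 and 7.92 CPM, 8.18-fold higher (log2 difference 3.03, SE 0.52, adjusted p = 0.00318), and Fcgr2b, the inhibitory Fc receptor, was 10.6-fold higher. Phagocyte lectins had 11 of 12 higher (5, 8 and 6). A list of mostly myeloid receptors, not all of them inhibitory, had 17 of 27 higher (4, 6 and 8), among them Trem2 and the B cell gene Cd22. Clec12a, an inhibitory receptor for dead cells, was 19.6-fold higher, and Pirb, which binds MHC class I, 51.8-fold. Haematopoietic regulators of actin had 19 of 25 (7, 9 and 8), with Arhgap15 and Coro1a 8.61-fold and 11.6-fold higher.

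Of 9 tested MS4A genes, membrane proteins of B cells and macrophages on chromosome 19, 8 were higher (6, 7 and 7). Ms4a4b, found in T cells, was at 11.2, 22.9 and 49.7 CPM against 0.127, 0.157 and 0.157 CPM, 172-fold higher (log2 difference 7.43, SE 1.02, adjusted p = 0.00118). Ms4a6b and Ms4a6c were 25.8-fold and 15.9-fold higher. In the SLAM and Ly6 families 12 of 17 were higher (9, 10 and 9). Cd84, an adhesion receptor of lymphocytes and myeloid cells, was 13.8-fold higher (11.2, 16.8 and 38.5 CPM against 1.33, 1.41 and 1.57 CPM), and Cd48 21.4-fold. Over all 832 higher genes there were 109 runs of at least 2 called neighbours with 326 genes, and 44 runs of at least 3, of which 35 lay outside the antigen receptor loci.

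In the complement list 10 of 25 were higher (6, 6 and 5, and 6 without MRL/lpr replicate 1) and none lower. The 3 chains of C1q, the molecule that binds immune complexes, lie side by side on chromosome 4 (C1qb from 136880129, C1qa to 136898803) and kept nearly the same size of difference: C1qa 11.1-fold, C1qc 10.8-fold and C1qb 12.3-fold. C1qa was at 98.7, 131 and 378 CPM against 14.4, 17.2 and 16.0 CPM (log2 difference 3.47, SE 0.57, adjusted p = 0.00269). C3, the shared hub of the cascade, was 116-fold higher (68.5, 110 and 661 CPM against 1.91, 2.43 and 1.73 CPM; adjusted p = 0.0047). C1qa and C3 separated the strains fully. Of acute phase and neutrophil proteins 7 of 17 were higher (2, 3 and 4), led by Serpina3g, a serine protease inhibitor induced by interferon, at 157-fold (11.4, 25.3 and 89.6 CPM against 0.191, 0.313 and 0.235 CPM).

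Lysosomal and lipid genes of macrophages were called in the minority: 7 of 23 lysosomal genes (2, 2 and 3) at a median of 0.12, and 10 of 30 genes of disease-associated macrophages (2, 4 and 5) at a median of 0.69. Ctss, the cathepsin that processes MHC class II, was at 144, 279 and 746 CPM against 15.5, 23.7 and 25.8 CPM, 15.3-fold higher (log2 difference 3.93, SE 0.63, adjusted p = 0.00245). Its groups were far apart. Ctsw, a cathepsin of cytotoxic cells, was 16.7-fold higher.

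None of 22 tested genes of fenestrated endothelium and pericytes was called (median 0.35). Vascular adhesion and high endothelial genes had 4 of 16 higher (0, 1 and 0), among them Glycam1, Selplg and Vwf, the last lost also without MRL/lpr replicates 1, 2, 4 and 6. Of the 16 genes 13 were positive, at a median of 0.85, and the summed level did not overlap between strains (384 to 568 CPM against 297, 372 and 340.5 CPM). Glycam1, a mucin-like glycoprotein of high endothelial venules, had 1 count in MRL/+ and 1.64, 9.18 and 30.1 CPM in MRL/lpr, a count ratio of 522 (exact 95% interval 93.4 to 20627; adjusted p = 0.00764). Its adjusted p was 0.0639, 0.0514 and 0.0570 without MRL/+ replicate 1, 2 and 3. Stromal matrix genes gave 1 higher and 1 lower of 47 (0 and 0 in each fit without a MRL/+ library): Dcn at 0.85 and Adamts1 at -0.74 on the log2 scale. Both lost their call also without MRL/lpr replicates 1 and 3, and Adamts1 without replicates 2 and 4.

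Epithelial programmes gave few calls, though most members of some lists had negative log2 differences. Of the ion and water transport genes 6 of 33 were positive, at a median of -0.23 against -0.01 over all tested genes. Solute carriers gave 13 of 42 (-0.16) and the epithelial markers 2 of 12 (-0.31). Secreted proteins gave 14 of 28 (0.01) and motile cilia genes 21 of 33 (0.07). Of 33 ion and water transport genes 1 was lower, Clcn3 (-0.54); of 42 solute carriers 1, Slc5a3 (-0.85); and of 28 secreted proteins and 33 motile cilia genes none was called. Neither Clcn3 nor Slc5a3 kept its call without any of the MRL/+ libraries, nor without MRL/lpr replicates 1 and 4, and Clcn3 also lost it without replicate 5. Among the 12 epithelial markers Prlr, the prolactin receptor, came closest, at 200, 314 and 549 CPM against 589, 762 and 689 CPM (log2 difference -1.06, SE 0.34, adjusted p = 0.0694). All 9 tested genes of the mitochondrial genome and all 47 nuclear genes of oxidative phosphorylation missed the threshold, the latter at a median of 0.13 at 12 weeks and -0.63 at 16 weeks, when 6 were lower. Cytosolic ribosomal protein genes were all positive at 12 weeks, 45 of 45 at a median of 0.66, and 4 were called: Rpsa (0.94), Rps9 (0.66), Rpl13 (0.61) and Rack1 (0.56). None of the 4 remained without any of the MRL/+ libraries, and 1 remained without MRL/lpr replicate 1, 3 or 5. At 16 weeks their median was -0.13 with 0 called. Under scaling to the epithelium the 12-week medians lie about 0.3 higher, as the median of all genes does. That shift was not worked out for 16 weeks.

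Stress and signalling lists held few called genes. Of 21 clock genes 2 were lower, the transcription factors Hlf (-1.14) and Clock (-0.62) (0, 0 and 0), and Clock lost its call also without MRL/lpr replicates 1, 2, 4 and 5. Of 21 glucocorticoid-responsive genes 1 was lower, Klf9 (-0.65, 0, 1 and 0), and 1 higher, Lcn2 (3.04, 0, 0 and 1), an iron-binding acute phase protein that was also the single call among 32 genes of oxidative stress and iron. Dusp2, a phosphatase of activated lymphocytes, was the single call among 32 immediate early genes, at 1.84, 3.52 and 9.84 CPM with 2 counts in MRL/+ (count ratio 90.2, exact 95% interval 24.8 to 748). In the endoplasmic reticulum list 2 of 38 were higher (1, 1 and 1), Mzb1 and Derl3, which are both plasma cell genes. Of 28 p53 targets and apoptosis regulators 7 were higher (2, 3 and 2), led by Bcl2a1a, a survival gene of leukocytes with close copies, at 38.4-fold. In that list 2 were lower, Sesn2 (-0.60) and Zmat3 (-0.42) (0, 0 and 0, and 0 without MRL/lpr replicate 1 or 4). Leukocyte integrins had 6 of 14 higher (0, 2 and 1), with Itgal, which pairs with Itgb2 in lymphocytes, 34.8-fold higher and an adjusted p of 0.00726 that became 0.0568 and 0.0564 without MRL/+ replicates 1 and 3.

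Against these lists the lower genes were few. Dmgdh, the mitochondrial enzyme that turns dimethylglycine into sarcosine, had the smallest p of all genes. It was at 21.3, 23.7 and 26.7 CPM in MRL/lpr and 152, 179 and 189 CPM in MRL/+, 7.27-fold lower (log2 difference -2.86, SE 0.14, adjusted p = 3.58e-09). Its neighbour Bhmt2, which makes methionine from homocysteine with S-methylmethionine as methyl donor, was at 12.5, 14 and 17.8 CPM against 51.0, 53.6 and 60.6 CPM (log2 difference -1.93, SE 0.17, adjusted p = 1.7e-05). The strains were far apart for both, and both remained called without the 4 libraries with other tissue (adjusted p = 1.34e-05 and 0.00568) and at 16 weeks, at -2.95 and -2.09. Of the 38 tested enzymes of choline, betaine and folate metabolism 1 more was lower, Mtrr (-0.37, adjusted p = 0.0413), which lost its call in 7 of the 9 fits that leave out 1 library: without MRL/lpr replicates 1 to 4 and without each MRL/+ replicate. Bhmt2 and Dmgdh lie head to head on chromosome 13, Bhmt2 on the minus strand from 93655720 to 93674302 and Dmgdh on the plus strand from 93674433 to 93752831. The 130 bases between them are shown because both starts border on them (chr13:93674303-93674432, GRCm38, plus strand, from the RefSeq window). The 6 CG pairs are in capitals, and 70.8% of the bases are G or C.
Bhmt2 to Dmgdh: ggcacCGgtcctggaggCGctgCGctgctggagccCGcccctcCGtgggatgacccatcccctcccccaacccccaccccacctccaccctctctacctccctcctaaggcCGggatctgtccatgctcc

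Tlx2, a homeobox factor, was at 0.564, 1.0 and 1.77 CPM against 5.97, 6.97 and 6.90 CPM (log2 difference -2.57, SE 0.32, adjusted p = 0.000624). It was 1 of 2 factors lower among 18 of choroid plexus identity; the other, Msx2 (-0.88), lost its call without each MRL/+ replicate and without MRL/lpr replicates 1, 3, 4 and 5. Esrp1, an epithelial splicing regulator, fell from 7.25, 4.62 and 7.69 CPM to 0.334, 0.997 and 1.43 CPM (log2 difference -2.74, SE 0.31, adjusted p = 0.000272). Of 29 tight junction and polarity genes 4 were positive, at a median log2 difference of -0.27, and Esrp1 led the 3 that were called lower. The others, Prkci (-0.40) and Grhl2 (-1.53), lost their call without each MRL/+ replicate and without MRL/lpr replicate 4, and Grhl2 also without replicates 1, 2 and 3. In both Tlx2 and Esrp1 the highest MRL/lpr library lay below the lowest MRL/+ library. The single run of 3 lower neighbours was Dlx3, Dlx4 and Dlx4os on chromosome 11, homeobox genes and an antisense transcript. Dlx4 was at 0.342, 0.797 and 0.917 CPM against 2.67, 2.59 and 3.14 CPM (log2 difference -1.96, SE 0.37, adjusted p = 0.00477). Dlx3 (-2.20, adjusted p = 0.0153) had adjusted p values of 0.0527, 0.0938 and 0.0655 without MRL/+ replicate 1, 2 and 3. Dlx4os (-1.66, adjusted p = 0.0151) had 0.0679, 0.0623 and 0.0710. Dlx4os overlaps Dlx4, and the library kit does not mark strand, so their reads cannot be told apart.

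Heat shock genes were the list with the most lower members called in every fit: 4 of 23 (4, 4 and 4), at a median of -0.37. They were Dnajb1, a co-chaperone, at 41.2, 50.4 and 53.7 CPM against 83.1, 83.7 and 103 CPM (log2 difference -0.88, SE 0.11, adjusted p = 0.000624), Hsph1 (-0.83, SE 0.13), Hspa1b (-3.23, SE 0.42) and Hspa1a (-2.01, SE 0.33). Hspa1a and Hspa1b, the inducible Hsp70 genes, are nearly identical, so their reads can be shared. Hspa1b was at 0.342, 0.472 and 0.834 CPM against 7.63, 2.19 and 4.63 CPM, and MRL/+ replicate 1 was the highest. All 4 separated the strains. At 16 weeks 7 of the list were lower. The heat shock element GAANNTTCNNGAA stood in the window of Hsph1 alone among these 4, in 20.8% of the windows of the list and in 0.450% of those of all tested genes. Of 28 cholesterol synthesis genes 2 were lower, Hmgcs1 and Lss (-0.48), and Lss lost its call without MRL/lpr replicates 2, 3 and 4 and without each MRL/+ replicate. Hmgcs1, the synthase at the head of the pathway, kept its call in every fit at -0.69 (SE 0.11, adjusted p = 0.00269). It lost it under scaling to the epithelium (-0.39, adjusted p = 0.155).

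Lower genes outside the lists were led by Scfd2, a vesicle traffic protein, at 1.48, 2.34 and 3.42 CPM against 7.63, 6.74 and 9.02 CPM (log2 difference -1.71, SE 0.24, adjusted p = 0.00124). Next came Mcoln3, an endosomal calcium channel (-1.39, SE 0.27), Tmod1, which caps actin filaments (-1.02, SE 0.18), and Nipal2 (-0.88, SE 0.16). The rule that named them takes only genes whose groups do not overlap. The remaining 5 by the naming rule were smaller: Tgfa, a growth factor of the EGF family (-0.76), Pcgf3 (-0.63), Rnf41 (-0.56), Fem1b (-0.55) and Ubfd1 (-0.48). All 5 missed the threshold under scaling to the epithelium, with log2 differences of -0.45, -0.32, -0.26, -0.23 and -0.16.

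The infiltrate genes varied several-fold among the MRL/lpr libraries, and a few called genes did not. Over the 208 genes higher in every fit, the coefficient of variation (SD over mean) of the 6 MRL/lpr libraries had a median of 0.637, and the highest library was a median 4.8-fold above the lowest. Cd3g, a T cell receptor chain, had 0.669 and C1qa 0.614. Over the 21 lower genes the median was 0.163 and the range 1.49-fold, and single genes had coefficients from 0.0542 to 0.617. Their median log2 difference was -1.39, against 4.90 for the 208 higher genes. A smaller difference passes every fit only where libraries vary less, so the contrast between these medians of variation follows in part from the selection. Mamdc2 and Ezh1 stood out and were chosen after their values were seen. Mamdc2, a secreted proteoglycan, was at 28.2, 36.9 and 49.9 CPM against 1.72, 1.41 and 0.706 CPM, 28.9-fold higher (log2 difference 4.85, SE 0.26, adjusted p = 1.01e-08), the second smallest p of all genes. Ezh1, a histone methyltransferase of the Polycomb complex, was at 44.8, 47.2 and 61.1 CPM against 19.1, 11.4 and 14.6 CPM, 3.26-fold higher (log2 difference 1.70, SE 0.18, adjusted p = 0.000124). Their coefficients of variation were 0.190 and 0.124, and the strains did not overlap in either gene. Their log2 differences at 16 weeks were 4.81 and 2.2. Mamdc2 lies on chromosome 19, 10.8 Mb from Fas, and Ezh1 on chromosome 11.

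**Figure D5:**
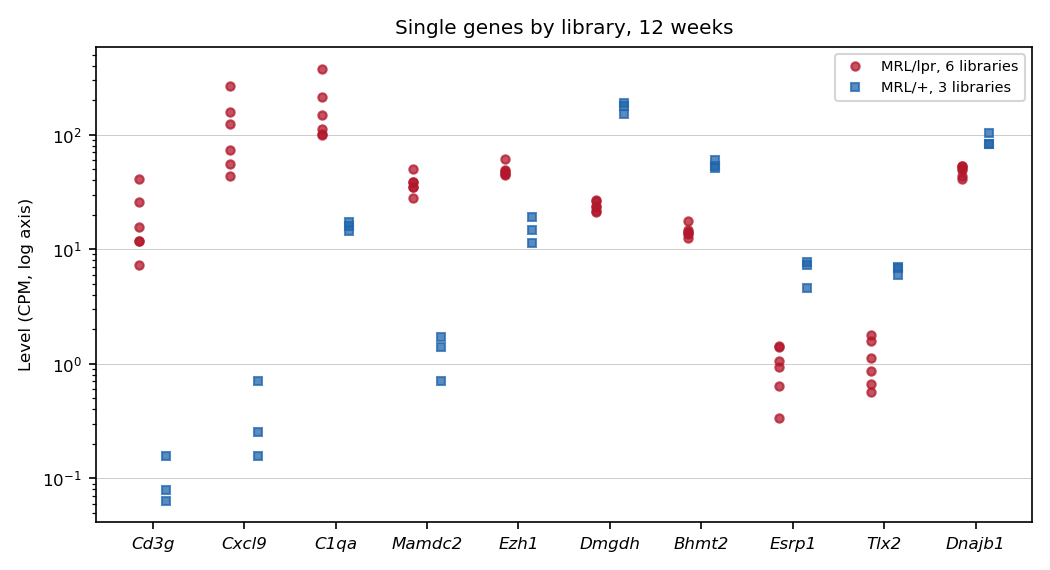
CPM (vertical log axis) of 10 genes in each of the 6 MRL/lpr and 3 MRL/+ libraries of 12 weeks. Cd3g, Cxcl9 and C1qa spread several-fold among MRL/lpr libraries. Dmgdh and Bhmt2 stay within a narrow range in each strain, and Mamdc2 and Ezh1 do so in MRL/lpr. In MRL/+ Mamdc2 runs from 0.706 to 1.72 CPM and Ezh1 from 11.4 to 19.1 CPM. No gene shown overlaps between strains.

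Fas lies on chromosome 19, and the called genes around it were counted. Within 10 Mb of Fas on chromosome 19, 8 of 140 tested genes were higher (5.71%) and 3 lower (2.14%). On the rest of that chromosome 30 of 403 were higher (7.44%) and 4 lower (0.993%). None of the 11 called genes within 10 Mb was called in every fit that leaves out 1 library. This depends on where the window ends: Mamdc2, 10.8 Mb from Fas, lies just outside it and was called in all 9 fits (log2 difference 4.85, adjusted p = 1.01e-08). Ch25h, an interferon-induced hydroxylase 0.146 Mb from Fas, had a log2 difference of 4.03 (adjusted p = 0.0136), and remained called in 6 of the 9 fits, with adjusted p values of 0.092, 0.0658 and 0.0688 without MRL/+ replicate 1, 2 and 3; it was chosen for its place.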

How the data were processed

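RNA-seq of mouse choroid plexus was deposited as 1 table of gene counts for 18 libraries. Per the labels, RNA came from flash-frozen choroid plexus and libraries with an Illumina TruSeq v2 kit, which does not mark strand. The deposited values are raw counts per gene, and, per the submitters' processing notes, the authors used STAR 2.5.3a, featureCounts 1.26.0, DESeq2 1.16.1 and the build GRCm38. No source used here gives the annotation release, the strand setting or how multi-mapping reads were counted.

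Groups were taken from the labels. Genes of the 50584 in the table were filtered with edgeR's filterByExpr, counts were scaled by TMM, and edgeR 4.0.16 (R 4.3.3) fitted its quasi-likelihood model with 1 mean per strain and age over all 18 libraries; MRL/lpr was contrasted with MRL/+ at 12 weeks, with Benjamini-Hochberg adjustment over the 16598 tested genes and a threshold of 0.05. Every adjusted p is from this test unless another is named. The smallest chi-square per gene between libraries of a group was 5.61, so no library was taken as a copy. The labels do not say that libraries are separate animals, and p-values measure the spread between them. The SE is the absolute log2 difference over the square root of its F value. CPM use TMM-scaled library sizes. Where the 3 MRL/+ libraries held no count, the fold is a lower bound against 3 counts over all of them; with 1 to 3 counts it is a ratio of counts with an exact 95% interval. Intervals and bounds cover counting error only. Library totals of 11723599 to 14521531 set the precision.

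The 50 gene lists and 33 marker panels, and the comparison itself, were chosen with earlier results of these data known. Genes were named by rule: Fas; from every list or panel described, the called members of smallest p, at most 4 (at most 2 where none was called); among called genes in no list, up to 12 per direction with the largest change (9 lower genes qualified), leaving out unnamed models and receptor segments and requiring groups that do not overlap, all 9 calls with 1 library left out and an average log2 CPM of 1 or more; runs of at least 3 neighbouring called genes; the 5 smallest interaction p; and the genes of the ratios. AC149090.1, C3, Cd180, Ch25h, Cxcl10, Cxcl11, Ezh1, Hvcn1, Ifng, Mamdc2, Ncr1, Sesn2, Tgtp2 and Zmat3 were not ranked by this rule and were chosen after their values were seen. Some genes that the rule names are not reported here. Ratios were tested by exact permutation and correlations over all pairings of the 6 libraries. Promoter windows are from RefSeq. Alternatives were RLE scaling, scaling to 12 epithelial genes, no filter, only the 9 libraries, DESeq2 1.42.0, limma 3.58.1 voom with sample weights, the replicate number as a block, each library left out, and 4 libraries left out. The fits across genes were checked on simulated data.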

Additional observations from a re-analysis of the deposited data

Results flagged for a closer look

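A library was set apart where its gap to the nearest of the 6 MRL/lpr libraries of 12 weeks was a large share of their range (Dixon's 95% criterion). 32 of 217 genes and panels met it, and chance gives about 1 in 20. Genes share their libraries, so these are not separate observations.

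MRL/lpr replicate 1 was the highest library for many genes of myeloid cells and chemokines. It held 279.6 CPM of the chemokine gene Ccl8, 15.59 of Ccl12 and 8.171 of Ccl7, and 50.11 CPM of Ccr2, the receptor gene for Ccl12 and Ccl7. Tyrobp stood at 123.3 CPM, Plac8 at 56.03, Ly86 at 52.86, Clec12a at 43.02, Ms4a7 at 33.85 and S100a4 at 7.504 CPM. Lymphocyte genes were also highest there, with Cd48 at 34.77, Gzmk at 13.76, Bcl2a1a at 13.26, Ctla4 at 11.67, Gzma at 4.252 and Ncr1 at 1.334 CPM. The proteasome gene Psmb8 stood at 164.5 CPM, Slc25a25 at 30.35, Prg2 at 2.501, Tnni2 at 1.501 and the heat shock gene Hspa1b at 0.8338 CPM. Among the genes that met the criterion, Klf9, at 25.35 CPM, was the one for which replicate 1 was the lowest library. The summed leptomeninges panel was also highest there, at 7457 CPM.

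MRL/lpr replicate 6 was set apart as the highest library for Ighg2c at 809.3 CPM, Ighg3 at 468.3, Ikzf3 at 20.63, Irf4 at 16.74 and Cd180 at 8.813 CPM. This did not hold for every immunoglobulin gene: Ighg1 was higher in replicate 1. It was also highest for Adamts1 at 110.6, Ezh1 at 61.15 and Vwf at 27.67 CPM. The cerebellum panel was highest in MRL/lpr replicate 2, at 306.4 CPM, below the 527 CPM of MRL/+ replicate 1.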

How the results depend on the processing

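The threshold count moved with the tool and with single libraries: against 1055 called genes (832 higher, 223 lower), DESeq2 called 1665 (1336 higher, 329 lower), limma voom with sample weights 3490 (1580 and 1910), and a fit without the 4 libraries that hold transcripts of other tissues 34 (28 and 6), which left 4 MRL/lpr and 2 MRL/+ libraries. All 34 were among the 1055, and all 1054 called genes that had a value there kept their sign. Genes lower numbered 85 with only the 9 libraries of 12 weeks, 130 with RLE scaling, 17 with scaling to the epithelium panel (1081 higher) and 69 with no filter on low counts. Scaling to the epithelium moved the median log2 difference of all genes from -0.01 to 0.29, and differences there are relative to that shift. Leaving out 1 library of 12 weeks gave 259 (without MRL/+ replicate 1) to 1463 (without MRL/lpr replicate 6) called genes, 225 to 969 higher and 34 to 494 lower; it was 384 without MRL/+ replicate 2 and 321 without MRL/+ replicate 3. Of 373 named genes, 332 of them called, none that was called changed sign under any alternative. Without 1 MRL/+ library 120 to 163 of them lost their call, and without the 4 libraries 303 did. The cause was not tested. No gene passed the interaction test with RLE scaling or DESeq2 either, where 2323 and 2626 genes had an unadjusted p under 0.05. None of the 12 ratios passed in any of 144 fits without 1 library; the log2 differences that turned sign or left the replicate spread were the ratio of IgG to Ighm (0.07 to 0.23), the ratio of Cd8a and Cd8b1 to Cd4 (-0.04) and the ratio of dendritic cells type 1 to type 2 (0.01 and 0.04). The replicate number as a block gave 1092 calls (855 higher, 237 lower); deviations of same-numbered libraries correlated at 0.046, -0.27 and 0.218, only 1 of 6 libraries correlated best with its own number, and the numbers were not taken as a pairing. With 3 MRL/+ libraries, low genes are limited by counting.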

Other observations

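Genes with a small p for a strain by age interaction were Per1, a clock gene, with log2 differences of -0.30 at 12 weeks and 0.66 at 16 weeks, Slc25a25 (-0.40 and 0.25), Tnni2 (2.08 and -5.76) and Gm9892 (0.66 and -0.74). Each had an adjusted p of 0.361 for the interaction in edgeR's quasi-likelihood test.

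Of the 1530 distinct genes in the lists and panels 1365 were tested, and 357 of them were higher and 23 lower. Outside them 475 genes were higher and 200 lower. Among all genes higher, 67 were immunoglobulin or T cell receptor genes. AC149090.1, an unnamed gene model on an unplaced scaffold, was chosen after its values were seen. It ranged from 102 to 127 CPM in MRL/lpr (median 110) against 66.4, 41.2 and 57.5 CPM in MRL/+, with no overlap. Its coefficient of variation over the MRL/lpr libraries, 0.0904, was the smallest of the 208 genes called higher in each fit without 1 library.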
